A study of Mus musculus with 15 samples.

Results

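The genes described here are 57 developmental regulators that carry a homeobox or a paired box and lie outside the Hox clusters. They were taken as a fixed list of symbols from the Dlx, LIM homeobox (Lhx and Isl1), Nkx, Pax, Irx, Otx, Pitx, Emx, Gbx, En, Msx, Gsx, Hmx, Meis and Pou families, together with Six2, Six3 and Six6. All 57 were found among the 21938 protein-coding genes of GENCODE M21. The values are the H3K4me3 peak summits of the amygdala of WT mice. A gene is called marked when at least 1 summit lay within 1 kb of any of its annotated transcription start sites (TSSs), and such a summit is called a promoter summit.

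The study asked how KMT2A, an H3K4 methyltransferase, and KDM5C, an H3K4me2/3 demethylase, act against each other in the brain. It profiled H3K4me3 by native ChIP-seq in amygdala nuclei of WT mice, Kmt2a heterozygotes (Kmt2a-HET), Kdm5c hemizygous knock-outs (Kdm5c-KO) and mice with both mutations (DM), in 15 samples of which 11 were H3K4me3 immunoprecipitates and 4 were inputs. All mice were adult males of the F1 generation of 129S1/SvImJ fathers and C57BL/6J mothers. Only the WT peaks were analysed here. They came as 1 list for both WT mice, with no mutant allele, so no value has a replicate error and no genotypes were compared.

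Homeodomain and paired-domain proteins bind DNA and set regional and neuronal identity in the embryo. In the telencephalon, Dlx, Gsx and Nkx2-1 act in the subpallium, where inhibitory neurons are born, whereas Emx, Lhx2 and Pax6 act in the pallium. The amygdala takes neurons from both sources. H3K4me3 marks the nucleosomes around active and poised promoters, and in stem cells many promoters of developmental regulators carry it together with the repressive mark H3K27me3, which was not measured here.

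The WT list had 24162 summits, and 24139 of them were on the autosomes and sex chromosomes. Each summit has a score, read here as the −log10 of its MACS2 q-value, and these had a median of 102.3 and reached 341.7. The score measures how surely the pooled reads exceeded the input at a summit, and it is not an amount of H3K4me3 per cell. In tissue, a mark on few cells and a weak mark on many cells cannot be told apart by it. The tissue label was checked on marker genes. Of 21 markers of neurons, astrocytes and oligodendrocytes, 20 had a promoter summit, with scores of 29.18 to 284.3, and the exception was Neurod6. None of the 5 markers of other tissues (Alb, Myh6, Ins2, Krt14 and Cdx2) had one, 0 of 5. Of all protein-coding genes 64.7% had a promoter summit. No markers of single brain regions were used, so the check covers brain tissue and not the amygdala.

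The promoters at the ends of the range are shown first, because they carry both the score and the base composition to which the results return. Each line gives 200 bases of GRCm38 from 170 bases before the outermost TSS, on the strand of the gene and 5′ to 3′, with CpG dinucleotides in capitals. Meis1 had the highest promoter score (chr11:19018956-19019155, minus strand) and Gbx2 the lowest of the marked genes (chr1:89931150-89931349, minus strand). Six2 (chr17:85688245-85688444, minus strand) had the highest CpG ratio of the genes with no promoter summit, and Pax4 (chr6:28449324-28449523, minus strand) had the lowest.
Meis1: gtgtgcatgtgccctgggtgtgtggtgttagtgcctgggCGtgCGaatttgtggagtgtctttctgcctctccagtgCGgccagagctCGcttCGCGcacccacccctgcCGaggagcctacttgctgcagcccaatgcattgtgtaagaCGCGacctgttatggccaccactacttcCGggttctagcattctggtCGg
Gbx2: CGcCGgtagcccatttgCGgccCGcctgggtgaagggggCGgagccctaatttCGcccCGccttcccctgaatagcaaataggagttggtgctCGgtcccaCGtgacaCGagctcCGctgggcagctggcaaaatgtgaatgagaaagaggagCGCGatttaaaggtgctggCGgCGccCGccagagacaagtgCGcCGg
Six2: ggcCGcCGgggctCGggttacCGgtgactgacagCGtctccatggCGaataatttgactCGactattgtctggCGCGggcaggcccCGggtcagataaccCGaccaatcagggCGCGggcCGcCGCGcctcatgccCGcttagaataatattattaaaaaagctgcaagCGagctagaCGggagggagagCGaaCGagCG
Pax4: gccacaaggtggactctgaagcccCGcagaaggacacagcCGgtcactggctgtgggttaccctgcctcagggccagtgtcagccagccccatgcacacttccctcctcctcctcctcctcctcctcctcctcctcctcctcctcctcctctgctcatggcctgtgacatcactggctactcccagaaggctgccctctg
The Meis1 stretch held 11 CpG and the Gbx2 stretch 18. The unmarked Six2 promoter held 22, more than either marked one, and that of Pax4 held 2.

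Of the 57 genes, 35 were marked, or 61.4% (95% Wilson interval 48.4 to 72.9%, which here and below covers counting error only). Of all protein-coding genes, the 57 included, 64.7% were marked, which lies inside that interval. This held for the window of 1 kb with summits of every score counted. When a score of at least 25 was asked for, the shares were 38.6% and 60%. With a window of 3 kb and every score counted they were 66.7% and 67.1%. With 500 bp either side of a TSS the share was 43.9% (31.8 to 56.7%), below the 57.1% of protein-coding genes. The other two homeobox groups had lower shares, with 4 of 39 Hox cluster genes (10.3%, 4.06 to 23.6%) and 28 of 65 further homeobox genes (43.1%, 31.8 to 55.2%).

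The scores of the marked genes were low. The median of the best promoter score was 49.0 over the 35 marked genes (interval of the median 22.78 to 61.22), against 194.6 over the 14197 marked protein-coding genes (193.5 to 196.5). All 35 lay below the median of marked protein-coding genes, and 31 lay below their lower quartile of 129.8. When unmarked genes were ranked lowest, the median over all 57 genes was 18.56, against 119.0 over all protein-coding genes. A best score at or above the list median of 102.3 was reached by 6 genes, or 10.5% (4.91 to 21.1%), against 52% of protein-coding genes and 14 of the 65 further homeobox genes (21.5%). At the low end, 13 of the 35 had a score under 25 and 3 a score under 10.

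**Figure D1:**
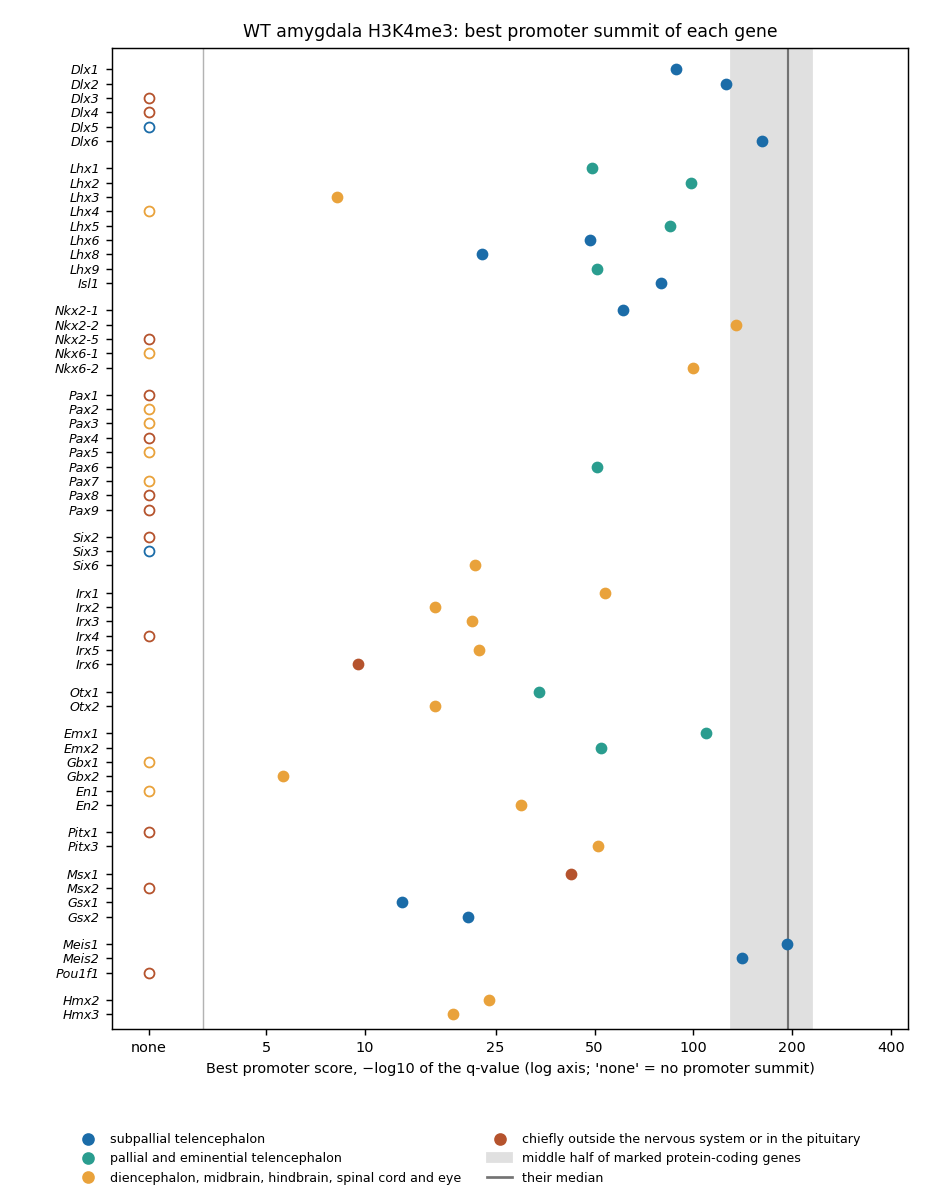
Best promoter score of each of the 57 genes in the WT amygdala (x axis, −log10 of the q-value, log scale), one row per gene, ordered by family and coloured by main embryonic domain. Open circles are genes with no promoter summit. The grey band runs from 129.8 to 230.2, the quartiles of marked protein-coding genes, and 4 of the 35 filled circles lie in it, with none to its right.

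**Figure D2:**
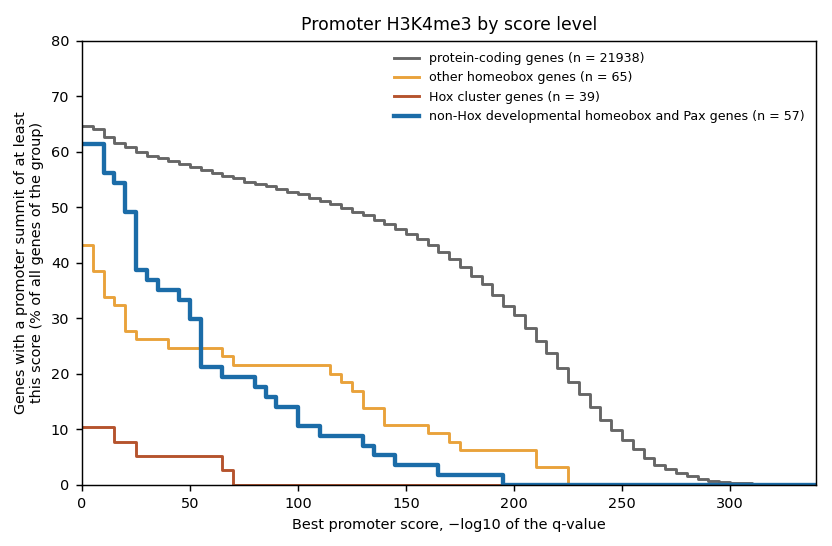
Share of the genes of each group (y axis, percent of all genes of the group) whose best promoter score is at least the value on the x axis (−log10 of the q-value). The curve of the 57 genes starts at 61.4%, close to the 64.7% of protein-coding genes, and falls away from it at low scores.

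The genes were then arranged by a main embryonic domain assigned to each, a grouping that was drawn up with earlier results of these data known. Of the 13 subpallial genes 11 were marked, as were all 8 of 8 pallial and eminential genes, 14 of 22 genes of the diencephalon, midbrain, hindbrain, spinal cord and eye, and 2 of 14 genes that act chiefly outside the nervous system or in the pituitary. The medians of the marked genes were 79.59, 51.6, 21.97 and 25.93 in that order. Taking both telencephalic domains together, a step chosen after the values were seen, 19 of 21 genes were marked (90.5%, 71.1 to 97.3%), with a median score of 61.22. Of the other 36 genes 16 were marked (44.4%, 29.5 to 60.4%), with a median of 21.97. The difference was not tested, and its size depended on the window. With 500 bp either side of a TSS the shares were 61.9% (40.9 to 79.2%) and 33.3% (20.2 to 49.7%), and with the outermost TSS alone 61.9% (40.9 to 79.2%) and 36.1% (22.5 to 52.4%), with intervals that overlapped. Lhx5, listed here as eminential, is also a gene of the prethalamus in the diencephalon, and with it counted among the other domains 18 of 20 and 17 of 37 genes were marked. Other genes that act in several domains, such as Isl1 of striatal and motor neurons, were not moved, so the split rests on these placements.

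Among the subpallial genes, Meis1, a cofactor of other homeodomain proteins, had the highest score of the list, 192.8 at position 19018816 of chromosome 11, 102 bp from the nearest TSS in an exon outside the coding sequence. Its score was above 71.7% of all summits. Dlx6 followed with 162.2 at position 6864479 of chromosome 6, in an intron 681 bp from a TSS. That summit lay 671 bp from the TSS of the transcript Dlx6os2, slightly nearer than to Dlx6 itself. Meis2 scored 140.8, 553 bp upstream of its outermost TSS at position 116066392 of chromosome 2. Dlx2, which acts in precursors of inhibitory neurons, scored 125.9 at position 71545842 of chromosome 2, and its neighbour Dlx1 scored 88.71. That Dlx1 summit lay 2852 bp inside the gene, at an internal TSS, and with the outermost TSS or protein-coding transcripts alone Dlx1 scored 9.361. Isl1, a LIM homeobox gene of striatal and motor neurons, had 79.59. Nkx2-1, which specifies the medial ganglionic eminence, had 61.22 at 945 bp downstream of a TSS, close to the edge of the window. Its targets Lhx6 and Lhx8, which act in the interneurons and cholinergic neurons from there, had 48.32 and 22.78. Gsx2 and Gsx1, which act in dividing precursors of the lateral eminence, had 20.57 and 12.92, the latter at position 147189075 of chromosome 5. Thus the marked subpallial genes spanned 12.92 to 192.8, and Dlx5 and Six3 were the 2 without a promoter summit.

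All 8 pallial and eminential genes were marked. Emx1, a gene of the excitatory neuron lineage of the cortex, had the highest score of the group, 109.2 in a coding exon 620 bp from a TSS. Lhx2, a selector gene of cortical identity, had 98.47, and Lhx5, known from the prethalamus and the eminence next to it, had 84.85. The best Lhx5 summit, at position 120432574 of chromosome 5, lay 807 bp from the antisense transcript Gm27199 and 875 bp from its own TSS. Emx2, which acts with Emx1 in the dorsal telencephalon, had 52.45. Pax6 and Lhx9, both known from neurons of the developing amygdala and eminence among others, shared a score of 50.75. Lhx1 had 49.04 and Otx1, a gene of deep cortical layers, had 33.89. The group thus held no score under 33.89, whereas 1 of its 8 genes, Emx1, was at or above the list median. This depended on the TSSs and the window. With the outermost TSS alone Emx2, Lhx1 and Otx1 had no promoter summit, and Pax6 and Lhx9 scored 10.29 and 9.772. With 500 bp either side of a TSS, Emx1, Lhx1 and Lhx5 had none.

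Of the genes of the diencephalon, midbrain, hindbrain, spinal cord and eye, Nkx2-2 stood highest with 134.9, in a coding exon at position 147185855 of chromosome 2, at an internal TSS 8388 bp from the outermost one. With the outermost TSS alone Nkx2-2 scored 48.66, below Nkx6-2. Nkx2-2 and Nkx6-2, at 99.81, are known in oligodendrocytes as well as in the ventral neural tube. Pitx3, a gene of dopamine neurons of the midbrain, had 51.14, and Irx1 had 53.66. En2, which patterns the midbrain and cerebellum, had 29.77. The other 9 marked genes of this domain had 23.84 or less. Hmx2 and Hmx3, of the inner ear and hypothalamus, had 23.84 and 18.56, the eye gene Six6 had 21.69, and Irx5 and Irx3 had 22.25 and 21.13. Otx2, which acts in the forebrain and midbrain, and Irx2 had 16.38 each, and Lhx3, of motor neurons and the pituitary, had 8.213. Gbx2, which sets the border of midbrain and hindbrain, had the lowest score of the 35, 5.636 in an exon outside the coding sequence at position 89930826 of chromosome 1. The best Lhx3 summit was at position 26202641 of chromosome 2, that of Otx2 at position 48666789 of chromosome 14 and that of Irx2 at position 72629378 of chromosome 13. Unmarked in this domain were En1, Gbx1, Pax2, Pax3, Pax5, Pax7, Nkx6-1 and Lhx4.

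Of the 14 genes listed as acting chiefly outside the nervous system or in the pituitary, Msx1, of craniofacial and limb tissue, had 42.32, and Irx6 had 9.545 at position 92674540 of chromosome 8. The other 12 were unmarked. They were Dlx3 and Dlx4, of the placenta and skin among other sites, the heart gene Nkx2-5, the sclerotome and thymus gene Pax1, the pancreatic gene Pax4, the thyroid and kidney gene Pax8, the tooth and pharyngeal pouch gene Pax9, the kidney gene Six2, the heart ventricle gene Irx4, the hindlimb and pituitary gene Pitx1, the pituitary gene Pou1f1 and Msx2, a relative of Msx1.

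By family, the LIM homeobox and Pax genes lay furthest apart. Of 9 LIM homeobox genes 8 were marked and Lhx4 was not. With protein-coding transcripts alone Lhx3 was unmarked too, and with the outermost TSS alone so were Lhx1, Lhx3 and Lhx6. Of 9 Pax genes Pax6 alone was marked, with Pax1, Pax2, Pax3, Pax4, Pax5, Pax7, Pax8 and Pax9 lacking a promoter summit. Of the Irx genes 5 of 6 were marked, of the Nkx genes 3 of 5, of the Dlx genes 3 of 6, of Six2, Six3 and Six6 the last, or 1 of 3, of the Otx and Pitx genes 3 of 4, of the Meis and Pou genes 2 of 3, and of the Emx, Gbx, En, Msx, Gsx and Hmx genes 9 of 12. The Wilson interval held the 64.7% of protein-coding genes in every family but Pax (11.1%, 1.99 to 43.5%). The families hold few genes, and the domains and families overlap, so neither split was tested.

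Many of these genes lie in pairs, and neighbours were compared. The Dlx1 and Dlx2 starts, 18641 bp apart, were both marked, with 88.71 and 125.9, and 4 summits lay between them, both of these included. Dlx6 and Dlx5 are 18751 bp apart with 7 summits between, the promoter summit of Dlx6 and an intronic summit of Dlx5 included. Of this pair only Dlx6 had a promoter summit. The third Dlx pair, Dlx3 and Dlx4, 26144 bp apart, had no promoter summit at either gene and 0 summits between. Thus, with the window of 1 kb, the 3 pairs of 1 family had promoter summits at both, at 1 and at neither gene. The intronic Dlx5 summit scored 176.7, and with a window of 3 kb Dlx5 was marked too. Hmx3 and Hmx2, 5906 bp apart, had similar scores of 18.56 and 23.84. In the Irx clusters, Irx1 (53.66) and Irx2 (16.38) were marked and Irx4 was not, whereas Irx3 (21.13), Irx5 (22.25) and Irx6 (9.545) all were. Members of different families were compared too, with other genes between them in part. Nkx2-1 with 61.22 lies 154859 bp from the unmarked Pax9, and Nkx2-2 with 134.9 lies 167682 bp from the unmarked Pax1. Six3 and Six2, 74666 bp apart, were both unmarked, with 4 summits between them, the intronic Six3 summits included.

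Several promoter summits at 1 gene were frequent. Of the 57 genes 16 had 2 or more, or 28.1% (18.1 to 40.8%), against 11.7% of protein-coding genes and 6 of the 65 further homeobox genes (9.23%, 4.3 to 18.7%). With 500 bp either side of a TSS the share was 14% (7.29 to 25.3%), an interval that holds the 7.59% of protein-coding genes, and with the outermost TSS alone it was 14% against 4.36%. The median number of annotated TSSs was 3 in the 57 genes and 3 in protein-coding genes. In all the 57 genes had 60 promoter summits, and 19 genes had 1, 11 had 2 and 5 had 3 or more. Pax6, with 24 annotated TSSs, had 7 promoter summits. Its best, 50.75, was at position 105676396 of chromosome 2, and the others scored between 2.452 and 10.29. Lhx8 had 3, with 22.78, 18.87 and 4.872 at positions 154329874, 154327751 and 154330615 of chromosome 3. Lhx9 had 3, with 50.75, 43.48 and 9.772 at positions 138841504, 138847456 and 138848412 of chromosome 1. Isl1 also had 3, of which 79.59 was upstream of the gene at position 116310006 of chromosome 13 and 21.69 in a coding exon. Irx2 had 3 low ones, with 16.38, 8.798 and 4.408. In each of these genes a best summit stood beside weaker ones, and in Lhx8 and Lhx9 the next score was close to the best.

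The summits also spread beyond the promoters. Within 10 kb of the outermost TSS, and leaving out summits within 1 kb of the TSS of another protein-coding gene, 7 genes had 4 or more summits, or 12.3% (6.08 to 23.2%), against 0.766% of protein-coding genes. This limit was chosen after the values were seen. Some of the counted summits had low scores. With only summits of a score of at least 10 counted, 4 of 57 genes reached the limit (7.02%, 2.76 to 16.7%), against 0.155% of protein-coding genes. The 7 were Dlx6 and Lhx5 with 9 each, Lhx9 and Isl1 with 6, Lhx8 with 5, and Pax6 and Six3 with 4. All 7 were listed in the telencephalic domains, Lhx5 included, and 0 of the other 36 genes reached 4. That split depended on the limit, since at 3 or more there were 12 of 21 telencephalic genes and 6 of the other 36, the latter being Nkx2-2, Irx2, Irx5, En2, Hmx2 and Hmx3. Of the further homeobox genes 5 of 65 had 4 or more (7.69%, 3.33 to 16.8%), an interval that overlaps the 6.08 to 23.2% of the list. At Lhx5 the promoter summit of 84.85 stood among 4 intronic summits of 4.635 to 23.1 and 4 upstream summits of 5.666 to 15.39. At Dlx6 the next highest summit, 125.3, lay 1872 bp upstream and 129 bp from the TSS of the non-coding transcript Dlx6os1.

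**Figure D3:**
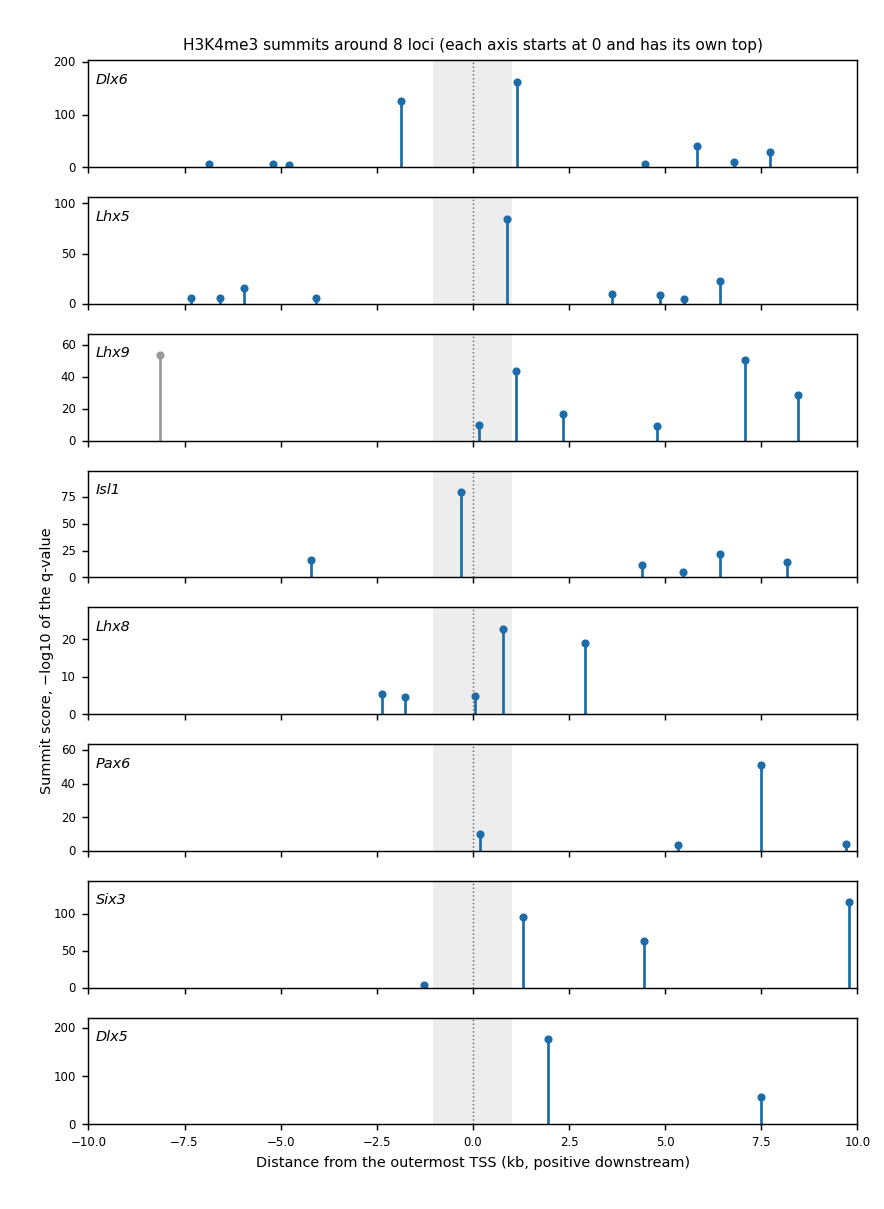
Summits within 10 kb of the outermost TSS of 8 genes (x axis, distance in kb, positive downstream; y axis, score as −log10 of the q-value, with its own range per gene). Blue stems are counted summits and the grey stem at Lhx9 is a summit within 1 kb of the TSS of another protein-coding gene; the shaded band is 1 kb either side of the outermost TSS. Dlx6 and Lhx5 each show 9 counted summits, and at Six3 and Dlx5 the high stems stand outside the band. The best stem of Dlx6 is within 1 kb of a further TSS of that gene.

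Over all 57 genes, 136 separate summits lay in a gene or within 10 kb of it. Of these 60 were promoter summits, 29 lay in introns, 6 in exons, 22 upstream and 19 downstream. Any summit in the gene or within 10 kb was found for 41 genes, or 71.9% (59.2 to 81.9%), against 73% of protein-coding genes. All 21 telencephalic genes had one, as did 20 of the other 36. In 8 marked genes a summit outside the promoter scored higher than the best promoter summit, a count not taken over protein-coding genes. The 4 highest of these lay near the TSS of a neighbour. At Lhx1, a summit of 231.3 lay 193 bp from the TSS of Aatf, at Pitx3 one of 272.6 lay 169 bp from that of Gbf1, at Hmx2 one of 215.3 lay 47 bp from that of Bub3, and at Irx5 one of 109.0 lay 71 bp from that of the non-coding transcript Crnde. The best promoter scores of these 4 genes were 49.04, 51.14, 23.84 and 22.25, lower by the way the genes were picked. Among the rest, the Lhx9 summit of 53.53 lay 124 bp from the TSS of the protein-coding gene 2310009B15Rik. The one at Hmx3, 23.84, was the promoter summit of Hmx2, 430 bp from its TSS. Those at Gsx2 and Irx2, 41.84 and 29.38, had no TSS of another gene within 10 kb.

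Of the 22 unmarked genes, 6 had a summit in the gene or within 10 kb. Dlx5 had the highest, 176.7 at position 6880143 of chromosome 6, in its intron and 1925 bp downstream of the nearest Dlx5 TSS. With that summit, Dlx5 would rank just behind Meis1. Six3, a gene of the forebrain and striatum, had 3 intronic summits of 96.29, 63.16 and 115.7, the nearest of them 1303 bp from a TSS, and 1 upstream summit of 3.552 at 1262 bp. The intronic summits of 96.29 and 63.16 lay 49 bp and 20 bp from the TSSs of the non-coding genes Gm27283 and Gm27502, which lie within Six3. Dlx5 and Six3, the 2 telencephalic genes without a promoter summit, thus each had a summit above the list median of 102.3 inside the gene, and all of the Six3 summits were below the lower quartile of marked protein-coding genes, 129.8. Msx2 had 13.49 at 1153 bp in an exon. Pax3 had 9.545 at 6700 bp upstream, Pax2 had 13.64 at its far end and 434 bp from the TSS of 1700039E22Rik, and Pax5 had intronic summits of 36.0 and 15.54. No summit at all was found in or within 10 kb of the other 16, which were Dlx3, Dlx4, Lhx4, Nkx2-5, Nkx6-1, Pax1, Pax4, Pax7, Pax8, Pax9, Six2, Irx4, Gbx1, En1, Pitx1 and Pou1f1.

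The best promoter summits lay farther from the TSS than those of protein-coding genes as a whole. The median distance to the nearest own TSS was 430 bp in the 35 marked genes and 222 bp in marked protein-coding genes, and 17 of 35 (48.6%, 33 to 64.4%) lay over 500 bp away, against 15.2% of marked protein-coding genes. In the further homeobox genes the median was 348 bp, and 8 of 28 best summits lay over 500 bp away (28.6%). Their interval of 15.3 to 47.1% overlapped that of the list. The limit of 500 bp was chosen after the values were seen. Of the 35 best summits 30 were downstream of the nearest TSS (85.7%), close to the 79.3% of protein-coding genes and the 89.3% of further homeobox genes, so nothing is read from the direction. They fell in a coding exon in 14 genes, in an intron in 12, in an exon outside the coding sequence in 7 and upstream of the gene in 2. These places were not counted over protein-coding genes, so they are not read as a trait of the list. Just inside the 1 kb window were En2 at 980 bp, Hmx3 at 947 bp and Nkx2-1 at 945 bp, and the nearest outside it were a second Lhx1 summit of 3.123 at 1006 bp, an Isl1 summit of 11.36 at 1104 bp and the Msx2 summit at 1153 bp. In 3 genes the TSS of another gene was nearer to the best summit than their own. Besides Dlx6 and Lhx5, this was Six6, whose best summit of 21.69, at position 72940498 of chromosome 12, lay 606 bp from its TSS and 276 bp from that of the protein-coding gene 4930447C04Rik. In 8 genes the best summit was within 1 kb of the TSS of another gene, in 1 of them (Six6) of a protein-coding one. Neither count was taken over protein-coding genes, so nothing is read from them about the list.

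Sequences under 2 displaced summits show what lay there. Each line gives 150 bases of GRCm38 around the summit on the strand of the gene, 5′ to 3′, with CpG in capitals. The En2 summit (chr5:28166599-28166748, plus strand) was the promoter summit farthest from its TSS and lies in the coding exon. The Dlx5 summit (chr6:6880068-6880217, minus strand), shown because it scored 176.7 at an unmarked gene, lies in the intron and was chosen after its value was seen.
En2: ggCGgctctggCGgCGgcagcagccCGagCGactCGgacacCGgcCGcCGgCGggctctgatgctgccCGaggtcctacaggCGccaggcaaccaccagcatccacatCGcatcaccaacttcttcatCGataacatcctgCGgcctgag
Dlx5: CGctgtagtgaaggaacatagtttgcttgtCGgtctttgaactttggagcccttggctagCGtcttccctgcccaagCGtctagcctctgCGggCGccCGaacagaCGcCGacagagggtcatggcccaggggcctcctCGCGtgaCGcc
The En2 stretch held 15 CpG with a CpG ratio of 0.897, and the Dlx5 stretch held 12 with a ratio of 0.833. The CpG ratio is the number of CpG over the number expected from the C and G content. Both displaced summits therefore stood on CpG-dense sequence.

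Promoter CpG content was compared because CpG-dense promoters carry H3K4me3 in most tissues. Within 500 bp of the outermost TSS, 48 of the 57 genes had a CpG ratio of at least 0.6 (84.2%), against 46.0% of protein-coding genes. Of these 48 genes 30 were marked, or 62.5% (48.4 to 74.8%), against 95.5% of protein-coding genes with such a ratio. The median score of the 30 was 48.68, against 205.9 over the marked protein-coding genes with such a ratio. The median ratio was 0.692 in marked and 0.671 in unmarked genes of the list, whereas over protein-coding genes it was 0.706 and 0.176. In the list the medians of marked and unmarked genes thus lay close together, and in protein-coding genes they lay apart. The further homeobox genes had a like pattern, with medians of 0.652 and 0.641, and 17 of their 40 CpG-rich genes were marked (42.5%, 28.5 to 57.8%). The 18 unmarked genes with a ratio of at least 0.6 included Six2 at 0.93, Gbx1 at 0.881, Nkx6-1 at 0.849 and Irx4 at 0.81. The 4 unmarked genes below 0.6 were Pax4 at 0.0517, Lhx4 at 0.0883, Pax8 at 0.221 and Pou1f1 at 0.337. The 5 marked genes below 0.6 were Hmx2, Lhx3, Lhx9, Pitx3 and Pax6, and in each the best summit was at another TSS, 5648 to 11942 bp from the outermost TSS around which the ratio was taken.

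**Figure D4:**
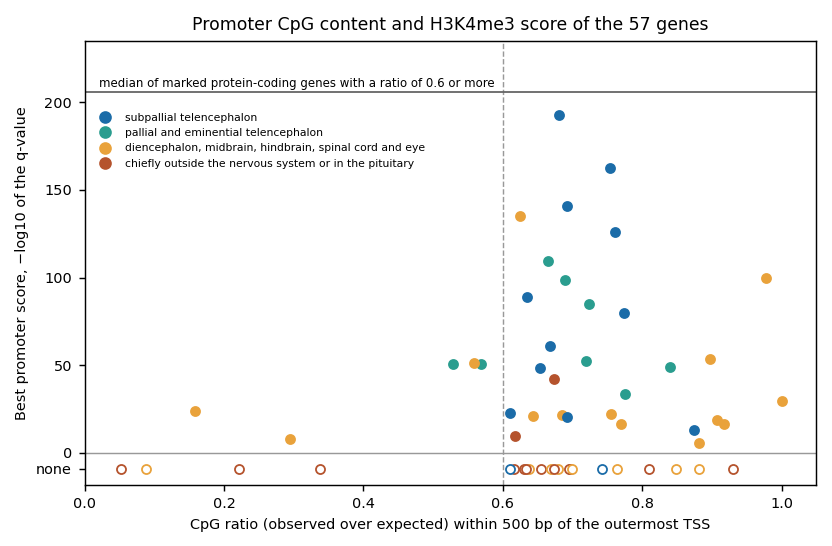
Best promoter score (y axis, −log10 of the q-value) against the CpG ratio within 500 bp of the outermost TSS (x axis) for the 57 genes, coloured by main embryonic domain. Open circles below 0 are genes with no promoter summit, the dashed line is a ratio of 0.6 and the horizontal line is 205.9, the median of marked protein-coding genes with a ratio of at least 0.6. All 35 marked genes lie below that line, and marked and unmarked genes overlap in their ratios.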

How the data were processed

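H3K4me3 ChIP-seq peaks of WT amygdala were analysed. The authors digested nuclei with MNase, aligned single-end reads to mm10 with Bowtie, used those that mapped uniquely and took peaks from MACS2 (version 2.1.0.20140616) against input. SAMtools is also named in the submitters' processing notes. The deposited list has 24162 lines of 1 bp without a header, and its score was read as the −log10 of the q-value that MACS2 writes. Peak width, fold enrichment and reads per mouse were not used here, so depth per summit is unknown. Both WT mice were pooled. The methods state a removal of black-list regions after the common peak sets, and whether it covers this list is not given in the sources used here.

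Summits were assigned with Python 3.11.15 to TSSs of all transcripts of GENCODE M21 on GRCm38, the build also called mm10. All 24139 summits on chromosomes 1 to 19, X and Y fell inside their reference chromosome. Promoters were 1 kb either side of a TSS, the width the study used. Shares carry 95% Wilson intervals (scipy 1.17.1) and medians carry binomial order-statistic intervals. Both cover counting error only, and no test was run, because 1 pooled list has no replicates. CpG ratios and sequences were read from GRCm38 with samtools 1.23.1. On simulated summits, placed upstream of the outermost TSS of isolated genes of chromosome 19, 200 of 200 genes were assigned as built. Summits downstream of a TSS, at internal TSSs or near other genes were not simulated.

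The members and the domain, family and comparison lists were chosen with earlier results of these data known. Of the further homeobox symbols 65 were found, and 1 was not found once. The genes written out with position are the 5 highest and lowest scores, genes with 3 or more promoter summits, genes whose summit is nearer to another gene, unmarked genes with a summit nearby, and neighbours. Limits of 4 summits, 500 bp and a CpG ratio of 0.6 were chosen after the values were seen. The alternatives varied the window, TSS set, score limit, joining of summits, flank and CpG window.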

Additional observations from a re-analysis of the deposited data

How the results depend on the processing

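No paired analysis was possible because the WT list pools both mice, and leaving out either mouse was not possible for the same reason. The promoter window and TSS choices do not enter the share with any summit within 10 kb and were not varied there. Of 71 alternatives of the summary values, 52 stayed inside the interval of the value as reported and 19 did not. Of 342 alternatives of single scores 300 left the score unchanged and 42 did not, losses and gains of a summit included. The 342 cover all 57 genes, and unmarked genes that stayed unmarked, and so have no score, count among the 300. The outermost TSS alone took Dlx1 from 88.71 to 9.361, Nkx2-2 from 134.9 to 48.66, Lhx2 from 98.47 to 59.88, Pax6 from 50.75 to 10.29, Lhx9 from 50.75 to 9.772 and Pitx3 from 51.14 to 21.19. A window of 500 bp took Irx1 from 53.66 to 8.247, Irx5 from 22.25 to 7.283, Otx2 from 16.38 to 9.337, Pitx3 to 21.19 and Hmx3 from 18.56 to 12.1, and one of 3 kb took Irx5 to 109.0. A window of 500 bp gave a promoter share of 43.9% (57.1% of protein-coding genes), 61.9% in telencephalic and 33.3% in other domains, and 14% with 2 or more promoter summits (7.59%), and it lost 10 genes, among them Dlx6, Meis2 and Emx1. A window of 3 kb gave 100% in telencephalic domains and 47.4% with 2 or more (17.7%), and gained Dlx5, Msx2 and Six3. The outermost TSS alone gave 45.6% (58.2%), 61.9% in telencephalic and 36.1% in other domains, a median score of 22.52 (193.8) and 14% with 2 or more (4.36%). Summits at or above the median score gave 10.5% (52%), 23.8% in telencephalic and 2.78% in other domains, a median score of 137.8 (209.6), 0% with 2 or more (4.27%) and 21.1% with any summit within 10 kb (60.1%). These shifts follow from admitting fewer or more TSSs and summits. CpG ratios within 1 kb were 0.648 with and 0.586 without a promoter summit. The share with 4 or more summits became 31.6% at 3 or more (3.26%) and 26.3% within 20 kb (1.87%), both added after seeing the data, as were the alternatives for the domains. In each pair printed here the 57 genes stayed below protein-coding genes in promoter share and score, and above them in numbers of summits except at the median score limit. The promoter shares were close at 3 kb, 66.7% (53.7 to 77.5%) against 67.1%. With protein-coding transcripts alone they were 59.6% (46.7 to 71.4%) against 63.5%. In both settings the interval held the share of protein-coding genes, so a lower promoter share is not read from them.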
